A study of Mus musculus with 15 samples.

Results

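The genes described are the 5 mouse NF-kB subunits (Nfkb1, Nfkb2, Rel, Rela and Relb) and 5 genes listed as their inhibitors (Nfkbia, Nfkbib, Nfkbie, Nfkbiz and Tnfaip3). Of the latter, Nfkbiz encodes a nuclear protein that steers a subset of NF-kB targets. They were taken as a listed set by gene symbol, 10 of the 45706 genes in the count table, and each symbol matched 1 Ensembl identifier in GENCODE vM21. RNA of lineage-negative bone marrow cells, that is, marrow depleted of cells bearing mature lineage markers on magnetic columns, was sequenced in 15 libraries. The cells came from the femur of secondary recipients, lethally irradiated CD45.1+ mice that had received stem and progenitor cells passed through a first recipient. The donors were WT (3 libraries), Puma-/- (4), third-generation telomerase-deficient G3 mTerc-/-Puma+/+ (4) or G3 mTerc-/-Puma-/- (4) mice. Both mTerc-/- groups therefore share the telomerase deletion and the generation breeding, and all 4 groups share serial transplantation and irradiated hosts. The deletions are germline, the samples are bulk, and no label names host-derived cells or says which libraries share a donor, so p-values measure the spread between these libraries.

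NF-kB transcription factors are dimers of the Rel family proteins encoded by these 5 subunit genes. In resting cells IkB proteins, such as those encoded by Nfkbia, Nfkbib and Nfkbie, hold the dimers in the cytoplasm, and receptors of TNF, IL-1 or microbial ligands act through the IkB kinases to have IkB degraded. Nfkbia and Tnfaip3 are themselves textbook NF-kB target genes and close negative feedback loops. In the marrow the pathway is known for emergency myelopoiesis, for B cell maturation and for stem cell responses to inflammation.

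Sequencing gave 102790519 to 158367059 counts per library (median 112046464), and the 10 genes held between 701 and 51819 counts in a library, so that counting error was at most 3.78% of a value and small beside the spread between libraries. Kit lay between 114 and 165 CPM and Cd34 between 86.1 and 230 CPM, both being progenitor genes, where CPM is each count divided by its TMM-adjusted library size and put on a common scale. Terc had at most 1 count in each mTerc-/- library, but only 7 to 17 counts in WT and 4 to 11 in Puma-/-, so this check of the label is weak. Bbc3, the gene of PUMA, was at 5.04 to 6.83 CPM in Puma-/- but at 13.5 to 17.1 CPM in the group labelled G3 mTerc-/-Puma-/-, within the 9.71 to 23.6 CPM of WT. These are therefore called the libraries labelled G3 mTerc-/-Puma-/-, and every direction drawn from them below rests on that label. Their replicate 2 stood apart. It had Flt3 at 3.45 CPM against 57.2 to 187 in the other 14 libraries, Csf1r at 26.0 against 239 to 403, and a summed level of 6 erythroid markers of 1114 CPM against 21.0 to 184. Tests below used the other 14 libraries, and values with all 15 are named as such.

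The promoters of the feedback inhibitors and of Rel are shown first, because Tnfaip3, Rel and Nfkbia, in that order, ranged most over the 15 libraries among the members with a promoter entry. The place of Rel rests on replicate 2 labelled G3 mTerc-/-Puma-/-. Over the other 14 libraries Rel ranged 1.79-fold, less than Nfkbie at 2.02-fold. RefSeq windows of 300 bases (GRCm38.p6, 250 before to 50 after an annotated start) were at hand for 7 of the 10 genes, with 10 windows in all, and no entry was used for Nfkb1, Relb and Nfkbiz. The NF-kB consensus motif was searched on both strands. Matches are in capitals, and overlapping matches run together.
Nfkbia, minus strand, chr12:55492598-55492897: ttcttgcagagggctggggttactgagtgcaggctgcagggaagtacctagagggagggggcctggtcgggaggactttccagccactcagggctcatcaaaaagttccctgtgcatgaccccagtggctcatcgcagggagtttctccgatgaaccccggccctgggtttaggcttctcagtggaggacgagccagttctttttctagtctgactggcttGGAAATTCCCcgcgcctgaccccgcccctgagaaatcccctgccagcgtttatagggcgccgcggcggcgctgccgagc
Tnfaip3, minus strand, chr10:19015361-19015660: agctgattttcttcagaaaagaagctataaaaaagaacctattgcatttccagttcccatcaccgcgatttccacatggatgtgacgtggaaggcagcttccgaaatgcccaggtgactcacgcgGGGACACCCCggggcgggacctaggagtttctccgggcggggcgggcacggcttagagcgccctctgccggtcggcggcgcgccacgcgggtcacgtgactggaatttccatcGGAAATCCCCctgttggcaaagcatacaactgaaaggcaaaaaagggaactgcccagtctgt
Rel, minus strand, chr11:23770920-23771219: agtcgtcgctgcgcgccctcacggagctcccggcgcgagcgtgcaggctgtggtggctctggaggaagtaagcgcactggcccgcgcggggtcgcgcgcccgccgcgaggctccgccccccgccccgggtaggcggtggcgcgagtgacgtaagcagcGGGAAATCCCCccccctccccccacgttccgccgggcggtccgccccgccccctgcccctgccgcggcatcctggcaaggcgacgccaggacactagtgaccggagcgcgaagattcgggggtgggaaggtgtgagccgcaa
In the Nfkbia window the match begins 29 bases before the start. The Tnfaip3 window has 2 matches, beginning 125 and 12 bases before it. In Rel, 2 overlapping matches begin 92 and 91 bases before the start. Nfkb2 had matches in each of its 3 windows, where the third window holds a site of the second again, and Nfkbie had 1 in its only window. The Nfkb2 match nearest to the first start and the Nfkbie match are shown with 10 bases on either side to let the cores be compared.
Nfkb2, plus strand, match at chr19:46304726-46304735: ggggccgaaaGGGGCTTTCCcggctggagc
Nfkbie, plus strand, match at chr17:45555594-45555603: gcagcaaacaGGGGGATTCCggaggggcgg
Rela, Nfkbib and the second Tnfaip3 window held none, which says only that these letters are absent from those windows. Thus 5 of the 7 genes had a match, beside 4.51% of all 32851 promoter windows and 5.14% of the 27025 genes in the table. A match is a description of sequence and was not measured as bound.

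The genes have GRCm38 positions as follows and are all annotated as protein coding. The subunit genes are Nfkb1 (ENSMUSG00000028163, chr3:135584655-135691547, minus strand), Nfkb2 (ENSMUSG00000025225, chr19:46304320-46312385, plus), Rel (ENSMUSG00000020275, chr11:23736847-23770970, minus), Rela (ENSMUSG00000024927, chr19:5637483-5648130, plus) and Relb (ENSMUSG00000002983, chr7:19606217-19629438, minus). The inhibitor genes are Nfkbia (ENSMUSG00000021025, chr12:55489410-55492647, minus), Nfkbib (ENSMUSG00000030595, chr7:28758251-28767512, minus), Nfkbie (ENSMUSG00000023947, chr17:45555703-45563169, plus), Nfkbiz (ENSMUSG00000035356, chr16:55811375-55838899, minus) and Tnfaip3 (ENSMUSG00000019850, chr10:19000910-19015657, minus).

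Levels within the set were compared as TPM, counts per exonic base scaled to a common total. Nfkbia, which encodes the IkB alpha protein, had the highest level of the 10, with a median of 170 TPM over 15 libraries (132 to 328). Rela, encoding the transactivating p65 subunit, followed at 79.9 TPM (61.4 to 95.6) and Nfkb1, encoding the p105 precursor of p50, at 65.7 TPM (29.3 to 74.8). These 3 kept their order in 15 of 15 libraries. That order depends on the length used, all annotated exons of a gene joined, which was 12061 bases for Nfkb1, 3072 for Rela and 1610 for Nfkbia. In CPM, which are not divided by length, Nfkb1 (139 to 326 CPM) lay above Nfkbia (78.0 to 208 CPM) and Rela (74.3 to 107 CPM) in each library. Nfkbib, the IkB beta gene, had a median of 45.2 TPM and lay below Nfkb1 in 14 of 15. Nfkb2, the gene of the p100 precursor of p52, was at 24 TPM and Nfkbie, the IkB epsilon gene, at 20.3 TPM, in that order in 15 of 15 libraries. Tnfaip3, encoding the ubiquitin-editing protein A20, was at 16 TPM, Rel at 13.3 TPM and the nuclear IkB zeta gene Nfkbiz at 12.9 TPM. The order among these was not stable, since Nfkbie exceeded Tnfaip3 in 10 of 15 libraries, Tnfaip3 exceeded Rel in 13 and Rel exceeded Nfkbiz in 8. Relb, the partner of p52 in the non-canonical pathway, was lowest at 6.0 TPM (4.15 to 8.82) and below Nfkbiz in each of the 15.

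**Figure D1:**
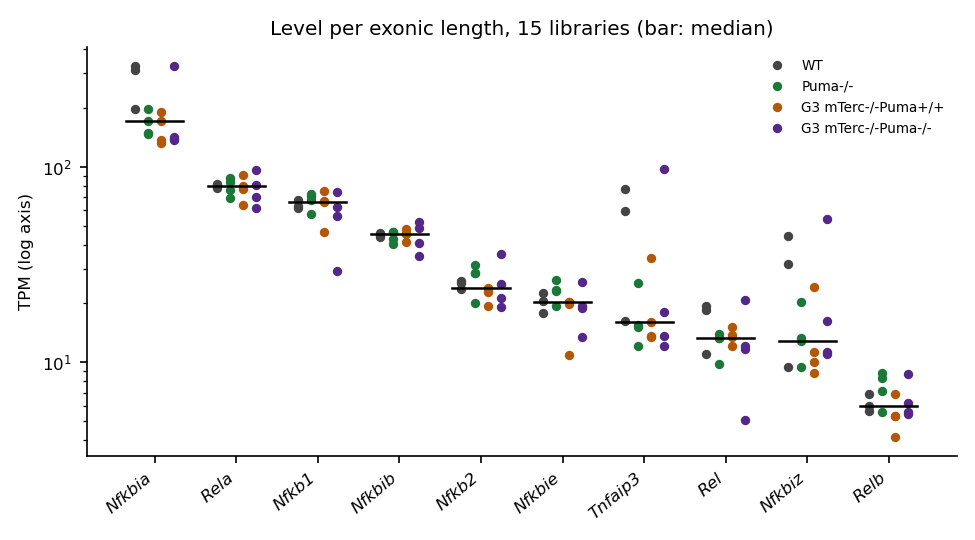
Level of each gene per exonic length in TPM (log axis), 1 point per library coloured by genotype, with the median over 15 libraries as a bar. Nfkbia is highest with a median of 170 TPM and Relb lowest with 6.0 TPM, and Tnfaip3 and Nfkbiz spread most.

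The members also differed in how much they varied. Over the 14 libraries Nfkbib, Rela and Nfkb1 ranged by only 1.24-, 1.28- and 1.36-fold from the lowest to the highest CPM, while Nfkbia ranged 2.66-fold, Nfkbiz 6.27-fold and Tnfaip3 7.79-fold. The SD within genotypes on the log2 scale was 0.10 for Rela and Nfkbib, 0.13 for Nfkb1, 0.40 for Nfkbia, 0.87 for Nfkbiz and 0.99 for Tnfaip3. Rela, Nfkb1 and Nfkbib were thus measured with far less spread than Nfkbia, Nfkbiz and Tnfaip3, and comparisons of the latter 3, called the inducible members below, were correspondingly imprecise.

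**Figure D2:**
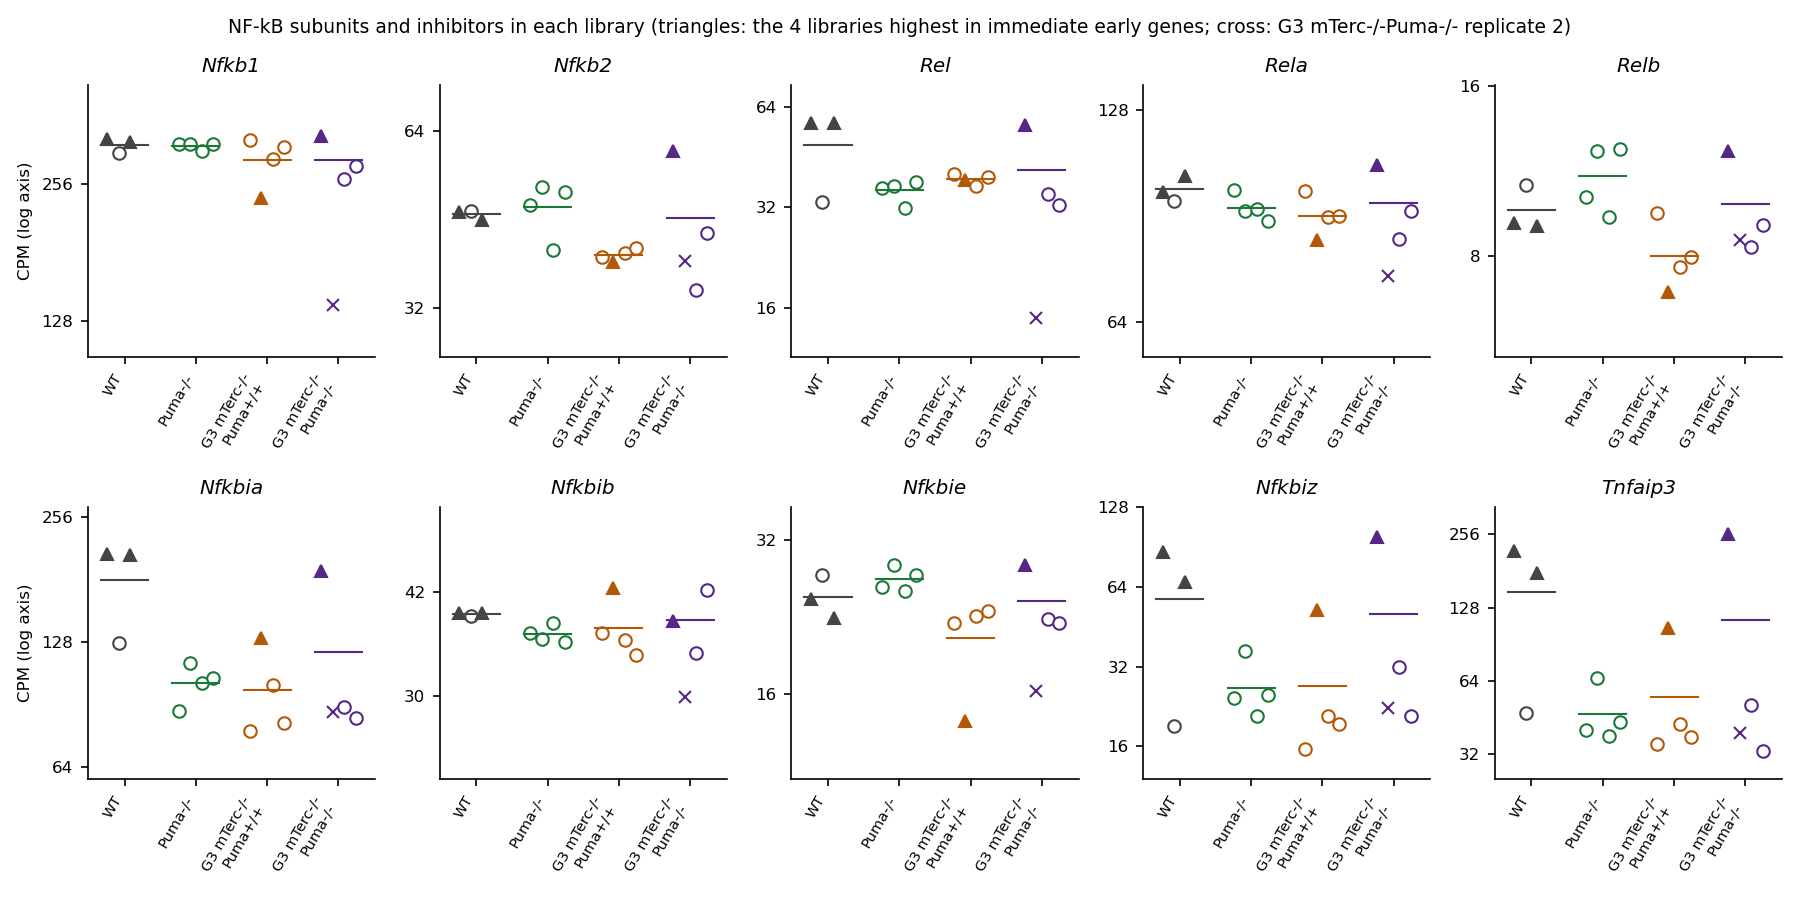
CPM (log axis) of each of the 10 genes in each library by genotype, with replicates from left to right and the genotype mean as a bar. Triangles mark the 4 libraries highest in immediate early genes and the cross is replicate 2 labelled G3 mTerc-/-Puma-/-, left out of the bar. The triangles hold the 4 highest values of Nfkbia, Nfkbiz and Tnfaip3, in 3 genotypes.

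None of the 10 genes passed the test in any of 8 comparisons of genotypes (edgeR's quasi-likelihood test, Benjamini-Hochberg adjusted over 18983 genes, threshold 0.05). The 8 were the 6 pairs of genotypes, the interaction of mTerc and Puma, and any difference among the 4. DESeq2 and limma-voom called 0 of the 10 as well in each. The lowest adjusted p of a member in edgeR was 0.146, for Relb between G3 mTerc-/-Puma+/+ and Puma-/-, and in DESeq2 it was 0.0533 for the same gene and comparison. Few genes passed in the whole table, and the share of all genes is given below beside each count of members passing in edgeR or separated.

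Between the mTerc-/- genotypes, the question was what Puma deletion changes in telomerase-deficient progenitors. All 10 genes had a fold change above 0 in the libraries labelled G3 mTerc-/-Puma-/-, with a median log2 fold change of 0.23 beside -0.015 over all genes, but 0 of 10 passed (0.0738% of all genes did) and 0 of 10 had an unadjusted p under 0.05 in edgeR (6.22% of all genes did). The direction rested on 1 library, since without replicate 1 labelled G3 mTerc-/-Puma-/- only 3 of 10 were above 0 and 7 below, with a median of -0.040. With all 15 libraries 6 were above 0 and 4 below. No member's libraries were separated between these 2 genotypes, beside 5.57% of all genes.

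Markers of several cell types moved with the same comparison. In the 3 fitted libraries labelled G3 mTerc-/-Puma-/-, means were higher for 6 of 6 B lineage markers (summed 55.6 to 109 CPM against 36.8 to 49.6 CPM), 5 of 5 plasmacytoid dendritic markers (264 to 292 CPM against 138 to 201 CPM), 7 of 7 neutrophil markers (1359 to 3449 CPM against 1136 to 2036 CPM) and 6 of 6 erythroid markers (42.4 to 184 CPM against 21.0 to 61.6 CPM). Means of 5 of 5 megakaryocyte markers were lower (125 to 175 CPM against 153 to 219 CPM). Of 15 immediate early genes 13 had higher means, with 3000 to 7030 CPM summed against 2087 to 5599 CPM. The lineage antibodies listed by the study are CD3, CD11b, B220, Ter-119, Gr-1 and Nk-1.1, which would remove most mature neutrophils, erythroid cells and B lineage cells. Sex differed as well. The Y-linked gene Ddx3y was at 2.88 CPM in replicate 1 labelled G3 mTerc-/-Puma-/-, on which the direction rested, at 4.27 CPM in replicate 4 and at 46.0 CPM in replicate 3, against 42.8 to 48.3 CPM in G3 mTerc-/-Puma+/+. Xist, which is expressed from the inactive X of female cells, was at 663, 446 and 0.388 CPM in replicates 1, 4 and 3. The part of these cell types, of the sex of the cells and of the early response in the members' values was not tested.

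Tnfaip3 had the largest estimate. It measured 256, 38.8, 51.0 and 32.8 CPM in replicates 1 to 4 labelled G3 mTerc-/-Puma-/-, and 35, 105, 42.5 and 37.6 CPM in G3 mTerc-/-Puma+/+. One library in each genotype was high and the others overlapped. The log2 fold change was 1.04 ± 0.644 (SE, edgeR, 95% confidence interval -0.35 to 2.43, adjusted p = 0.889), and it was -0.40 without replicate 1 labelled G3 mTerc-/-Puma-/- and 1.55 without replicate 2 of G3 mTerc-/-Puma+/+. An exact two-sided permutation test of mean log2 CPM gave p = 0.514, where 3 against 4 libraries cannot go below 0.0571.

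Nfkbiz, whose nuclear protein steers a subset of NF-kB targets such as Il6, gave the same picture. Its CPM were 98.7, 22.4, 31.9 and 20.9 under the label G3 mTerc-/-Puma-/- and 15.7, 52.3, 20.8 and 19.5 in G3 mTerc-/-Puma+/+. The high libraries were again replicate 1 and replicate 2. The log2 fold change was 0.90 ± 0.564 (SE, 95% confidence interval -0.31 to 2.11, edgeR adjusted p = 0.889, exact permutation p = 0.343), and -0.038 without replicate 1 labelled G3 mTerc-/-Puma-/-.

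Nfkbia measured 190, 86.6, 89.2 and 83.9 CPM with the label G3 mTerc-/-Puma-/- against 78.0, 131, 101 and 81.7 CPM in G3 mTerc-/-Puma+/+. Only replicate 1 of the former lay outside the range of the latter. The log2 fold change of 0.31 ± 0.271 (SE, 95% confidence interval -0.28 to 0.89, edgeR adjusted p = 0.951, exact permutation p = 0.571) became -0.18 without that library.

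The subunits Rela, Nfkb1 and Rel had log2 fold changes below 0.1 there. Rela measured 107, 74.3, 84.0 and 92.0 CPM under the label G3 mTerc-/-Puma-/- and 98.3, 83.6, 90.1 and 90.4 CPM in G3 mTerc-/-Puma+/+. Its log2 fold change was 0.057 ± 0.0810 (SE, 95% confidence interval -0.12 to 0.23). Nfkb1 was at 326, 139, 263 and 280 CPM against 320, 239, 291 and 309 CPM, and its log2 fold change was 0.00026 ± 0.0978 (SE, 95% confidence interval -0.21 to 0.21). The low value of 139 CPM is replicate 2, which was not in the fit, and with it the estimate was -0.20. Rel, encoding the c-Rel subunit of lymphoid and myeloid cells, was at 56.5, 14.9, 35.1 and 32.6 CPM against 40.2, 38.5, 37.0 and 39.5 CPM, with a log2 fold change of 0.094 ± 0.193 (SE) that was -0.20 without replicate 1. The edgeR adjusted p of these 3 genes lay between 0.976 and 0.999, and exact permutation gave p = 0.514, p = 1.0 and p = 0.857 in the order given.

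The non-canonical pair and the remaining IkB genes had small estimates. Relb measured 12.3, 8.55, 8.30 and 9.07 CPM under the label G3 mTerc-/-Puma-/- and 9.53, 6.90, 7.64 and 7.96 CPM in G3 mTerc-/-Puma+/+, a log2 fold change of 0.31 ± 0.162 (SE, 95% confidence interval -0.042 to 0.65, edgeR adjusted p = 0.836) that was 0.12 without replicate 1 of the former. Nfkb2 measured 59.2, 38.4, 34.3 and 42.9 CPM against 39.0, 38.3, 39.7 and 40.4 CPM, where the former spread widely around a narrow second group, with a log2 fold change of 0.21 ± 0.138 (SE, edgeR adjusted p = 0.908). Nfkbie was at 28.6, 16.2, 22.4 and 22.0 CPM against 22.0, 14.2, 22.7 and 23.3 CPM, with a log2 fold change of 0.25 ± 0.153 (SE, edgeR adjusted p = 0.889) that was 0.11 without that same library and 0.10 without G3 mTerc-/-Puma+/+ replicate 2. Nfkbib was at 38.2, 29.9, 34.5 and 42.3 CPM against 36.8, 42.5, 36.0 and 34.3 CPM, with a log2 fold change of 0.035 ± 0.0822 (SE, edgeR adjusted p = 0.994). The exact permutation p of these 4 genes ran from 0.229 for Relb to 0.743 for Nfkbib. Strand settings of the counting are not given in the sources used here, and Nfkb2 shares 11.6% and 6.52% of its exonic bases with 2 genes on the opposite strand (ENSMUSG00000118087 and Psd) and Nfkbib 14.5% with Ccer2 and 1.94% with Sirt2, so that some of their counts may belong to those genes.

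**Figure D3:**
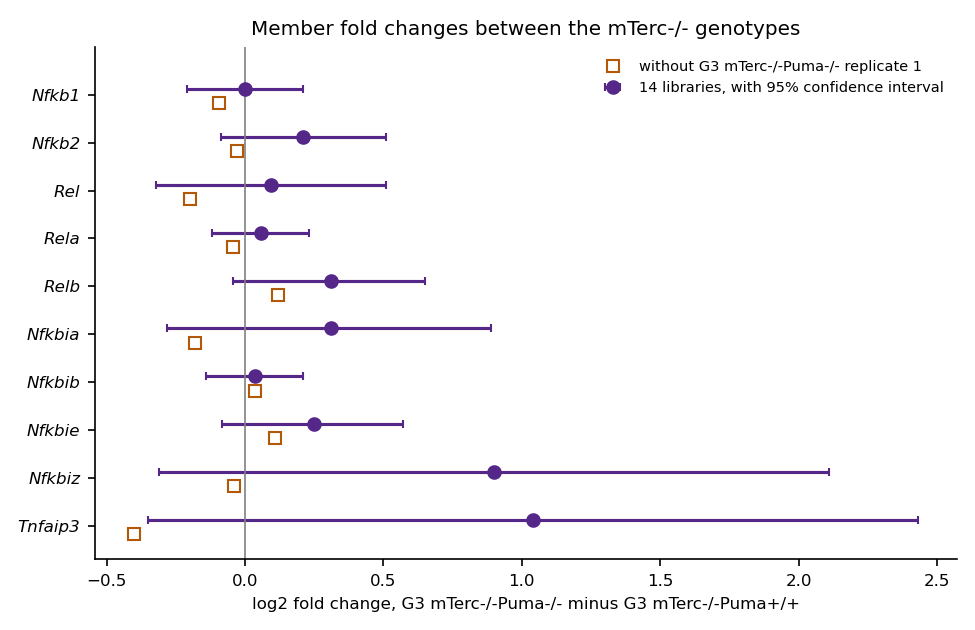
Log2 fold change of each gene in libraries labelled G3 mTerc-/-Puma-/- relative to G3 mTerc-/-Puma+/+, with the 95% confidence interval from 14 libraries (filled circles) and without replicate 1 labelled G3 mTerc-/-Puma-/- (open squares). The 10 intervals include 0, and 7 of the 10 squares lie below 0.

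Immediate early genes, which are known to respond fast to a stimulus or to cell handling, moved with the inducible members. Over 15 such genes (Fos, Fosb, Jun, Junb, Jund, Egr1, Egr2, Atf3, Ier2, Dusp1, Zfp36, Btg2, Klf6, Hspa1a and Hspa1b), WT replicates 1 and 3, G3 mTerc-/-Puma+/+ replicate 2 and replicate 1 labelled G3 mTerc-/-Puma-/- had a mean log2 CPM of 7.65 to 8.09. The other 11 libraries lay between 5.69 and 7.04, and the gap of 0.61 between these sets was the widest between neighbouring libraries. No Puma-/- library was among the 4. Their summed level of the 15 genes was 5599 to 7489 CPM in the 4 libraries and 1722 to 4142 CPM in the other 11. Each of the 15 genes had counts in every group, and 9 of them, Atf3 among these at 58.4 to 145 CPM against 1.69 to 15.5 CPM, were higher in each of the 4 than in each of the 11.

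Nfkbia, Nfkbiz and Tnfaip3 showed the same separation, 3 of the 10 members beside 1.50% of the 10433 genes with a mean of at least 5 CPM. Tnfaip3 lay at 105 to 256 CPM in the 4 libraries and at 32.8 to 65.9 CPM in the 11, Nfkbiz at 52.3 to 98.7 CPM against 15.7 to 36.6 CPM, and Nfkbia at 131 to 208 CPM against 78.0 to 127 CPM. The ratio of means was 4.41, 3.26 and 1.92 in that order, and it was 1.53 for Rel, whose sets overlapped (38.5 to 57.3 CPM against 14.9 to 40.2 CPM). The other 6 members had ratios from 0.937 for Nfkbie to 1.11 for Nfkb2. This split was seen in the data and was given no test. The part of the early response in these levels was not tested.

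**Figure D4:**
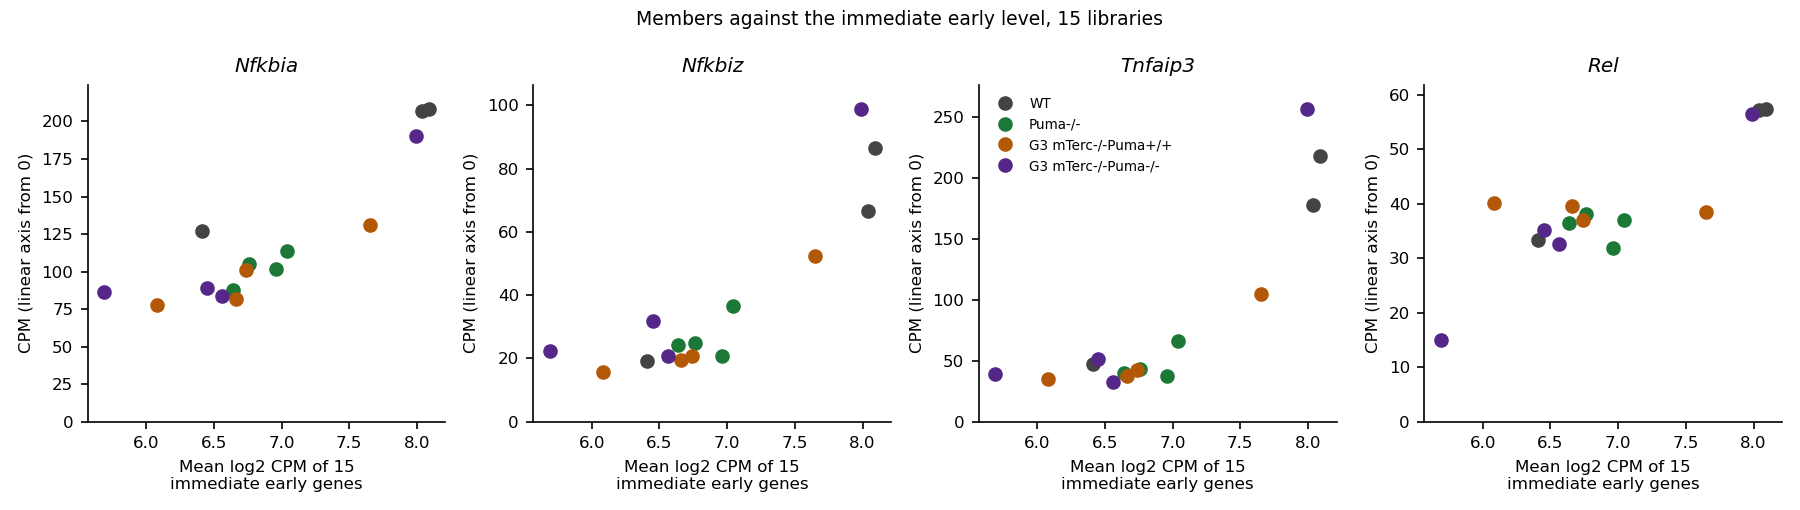
CPM of Nfkbia, Nfkbiz, Tnfaip3 and Rel (linear axes from 0) against the mean log2 CPM of 15 immediate early genes, 1 point per library coloured by genotype. The 4 libraries at 7.65 or more lie above the other 11 for Nfkbia, Nfkbiz and Tnfaip3, and G3 mTerc-/-Puma+/+ replicate 2 lies with the 11 for Rel.

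Because the libraries fall into separate sets, correlations were computed within the 11. With the immediate early level, Nfkbia had Pearson's r = 0.45 (permutation p = 0.168) and Spearman's rho = 0.48 (permutation p = 0.138). Tnfaip3 had r = 0.38 and rho = 0.28 (permutation p = 0.244 and p = 0.401), and Nfkbiz r = 0.39 and rho = 0.36 (permutation p = 0.228 and p = 0.273). Adjusted over the 10 members these gave 0.241, 0.271 and 0.271 for r. Only Nfkbie passed on r (r = 0.81, adjusted permutation p = 0.0435), not on rho (rho = 0.65, adjusted permutation p = 0.329), and its r fell to 0.43 without the 2 libraries farthest from the median. Within the 11 libraries no relation with the early level passed on both coefficients, and 11 libraries leave room for sizeable ones.

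Among the 45 pairs of members within the 11 libraries, 3 passed on r after adjustment and 0 on both r and rho. These were Nfkb2 with Relb (r = 0.85, adjusted permutation p = 0.0434, rho = 0.74, adjusted permutation p = 0.0947), Nfkb1 with Rela (r = 0.89, adjusted permutation p = 0.0434, rho = 0.55, adjusted permutation p = 0.331) and Nfkbiz with Tnfaip3 (r = 0.81, adjusted permutation p = 0.0477, rho = 0.60, adjusted permutation p = 0.258). Without the 2 libraries farthest from the median of the first gene, r was 0.69, 0.34 and 0.32, so that the last 2 rest on those libraries. Without replicate 2 labelled G3 mTerc-/-Puma-/-, 0 of 45 pairs passed on r, although r was 0.84 for Nfkb2 with Relb and 0.81 for Nfkbiz with Tnfaip3, while that of Nfkb1 with Rela was 0.68.

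The genes whose log2 CPM followed Nfkbia most closely over the 15 libraries, out of 10423 other genes with a mean of at least 5 CPM, were Maff (r = 0.94), Pnrc1 (0.94), Gm26532 (0.93), Fosb (0.93) and Grasp (0.92). Maff encodes a small Maf transcription factor and Fosb an AP-1 subunit that is also in the early list. Maff lay at 8.80 to 11.7 CPM in the 4 libraries and at 2.58 to 4.45 CPM in the 11. Within the 11 the same r were 0.69, 0.50, 0.50, 0.66 and 0.59, as a description over libraries that share the split.

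Against WT, the question was what telomerase or Puma loss alone does. Between G3 mTerc-/-Puma+/+ and WT, 10 of 10 members had a fold change below 0 (median -0.27, all genes 0.018), with 0 of 10 called beside 0.0369% of all genes. An unadjusted p under 0.05 was found for 2 of 10 beside 3.86% of all genes, for Nfkbia and Tnfaip3. Nfkbia measured 208, 127 and 207 CPM in WT. Its log2 fold change was -0.88 ± 0.270 (SE, edgeR, p = 0.00578, adjusted p = 0.980), and 1 G3 mTerc-/-Puma+/+ library lay above the lowest WT library (exact permutation p = 0.114, smallest possible 0.0571). Tnfaip3 measured 218, 47.2 and 178 CPM in WT, with a log2 fold change of -1.42 ± 0.646 (SE, edgeR, p = 0.0454, adjusted p = 0.998, exact permutation p = 0.114), and -1.06 without WT replicate 1. Immediate early genes had lower means for 13 of 15 genes in the same comparison (2087 to 5599 CPM summed against 2771 to 7489 CPM). Cell type markers moved there too, with lower means for 6 of 6 B lineage markers (summed 36.8 to 49.6 CPM against 55.2 to 60.7 CPM) and for 5 of 5 mature B, megakaryocyte, mast and basophil, and plasmacytoid dendritic markers each, and higher means for 7 of 7 neutrophil and 7 of 7 T and NK markers. Sex markers differed as well. Xist was at 418, 212 and 1.73 CPM in WT replicates 1 to 3, against 0.177 to 88.9 CPM in G3 mTerc-/-Puma+/+. Ddx3y was at 21.3 to 43.2 CPM in WT against 42.8 to 48.3 CPM. The part of the early response, of these cell types and of the sex of the cells in the members' values was not tested. Without the 4 libraries high in immediate early genes, which leaves WT 1 library whose spread is taken to be that of the others, the estimates were -0.56 for Nfkbia and -0.30 for Tnfaip3. Nfkb2 alone was separated (38.3 to 40.4 CPM against 46.6, 46.8 and 45.2 CPM in WT), 1 of 10 beside 4.07% of all genes, with a log2 fold change of -0.23 ± 0.138 (SE, edgeR adjusted p = 0.998).

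Between Puma-/- and WT, 3 members had fold changes above 0 and 7 below (median -0.088, all genes 0.0048). None was called, beside 0.0790% of all genes, and 3 of 10 had an unadjusted p under 0.05 beside 10.1% of all genes. Nfkbia measured 87.5, 114, 102 and 105 CPM in Puma-/-, below each WT library (log2 fold change -0.82 ± 0.270, SE, edgeR adjusted p = 0.391, exact permutation p = 0.0571, the smallest possible). Tnfaip3 measured 40.2, 65.9, 37.8 and 43.3 CPM in Puma-/- (-1.66 ± 0.648, SE, edgeR adjusted p = 0.437), and Rel 36.5, 37.1, 31.9 and 38.2 CPM against 57.3, 33.3 and 57.2 CPM in WT (-0.46 ± 0.192, SE, edgeR adjusted p = 0.456). For both, WT replicate 2 lay within the Puma-/- range, and exact permutation gave p = 0.114 and p = 0.229. Without the 4 libraries the estimates were -0.33 for Nfkbia, -0.025 for Tnfaip3 and 0.10 for Rel. Means of 14 of the 15 immediate early genes were lower in Puma-/-, whose libraries summed to 3076 to 4142 CPM. Means were higher in Puma-/- for 5 of 5 megakaryocyte markers (321 to 535 CPM against 129 to 279 CPM), 5 of 5 mature B markers (27.1 to 32.5 CPM against 15.1 to 19.9 CPM), 5 of 5 mast and basophil, 5 of 5 plasmacytoid dendritic and 7 of 7 T and NK markers, whose part in the members' values was not tested. Separated libraries were found for 2 of 10 members, Nfkbia and Nfkbib, beside 9.70% of all genes. Nfkbib was at 36.8, 36.1, 38.0 and 35.7 CPM in Puma-/- against 39.2, 38.8 and 39.2 CPM in WT, a log2 fold change of -0.091 ± 0.0822 (SE, edgeR adjusted p = 0.726).

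The remaining members overlapped between WT and Puma-/-. Nfkb1 was at 321, 299 and 316 CPM in WT and 314, 313, 302 and 314 CPM in Puma-/-, Rela at 98.0, 95.1 and 103 CPM and at 98.5, 92.0, 92.5 and 89.0 CPM, Relb in WT at 9.16, 10.7 and 9.06 CPM and Nfkbie in WT at 24.5, 27.4 and 22.5 CPM. Nfkbiz in WT was 86.6, 19.1 and 66.5 CPM and in Puma-/- 24.4, 36.6, 20.8 and 24.9 CPM, so that WT held both the lowest and the highest values of these groups. Setting the libraries labelled G3 mTerc-/-Puma-/- beside WT, 1 member was above 0 and 9 below (median -0.086, all genes 9.8e-05). The split rested on single libraries, since without replicate 3 of that label 6 were above 0 and 4 below (median 0.020), and without replicate 4 they were 5 and 5 (median -0.016). Without replicate 1 of that label 0 were above 0 and 10 below (median -0.23), and so they were with all 15 libraries (median -0.23). With library size alone 4 were above 0 and 6 below. Means of 15 of 15 immediate early genes, 5 of 5 megakaryocyte and 5 of 5 mast and basophil markers were lower than in WT, and those of 7 of 7 neutrophil, 7 of 7 T and NK, 6 of 6 erythroid and 5 of 5 plasmacytoid dendritic markers higher, and their part in these values was not tested. No member passed at an adjusted p (0.0632% of all genes) or an unadjusted p under 0.05 (5.45%) in edgeR, and none was separated (8.51%). Nfkbia had the lowest p there, with a log2 fold change of -0.58 ± 0.292 (SE, edgeR adjusted p = 0.946).

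Whether Puma deletion acts differently with and without telomerase was asked through the interaction, the log2 fold change between the mTerc-/- genotypes minus that between Puma-/- and WT. It was above 0 for 10 of 10 members (median 0.16, all genes -0.0060), with 0 called beside 0.0527% of all genes. An unadjusted p under 0.05 was found for 3 of 10 beside 4.93% of all genes. Tnfaip3 had 2.70 ± 0.913 (SE, edgeR, 95% confidence interval 0.73 to 4.66, adjusted p = 0.786), Nfkbia 1.13 ± 0.382 (SE, 0.31 to 1.95, adjusted p = 0.786) and Nfkbiz 2.01 ± 0.797 (SE, 0.29 to 3.72, adjusted p = 0.926). Without replicate 1 labelled G3 mTerc-/-Puma-/- these were 1.26, 0.64 and 1.07, and 7 of 10 members were above 0. Without the 4 libraries high in immediate early genes they were 0.15, 0.32 and 0.026. In the test of any difference among the 4 genotypes 0 of 10 passed beside 0.448% of all genes, and Nfkbia alone had an unadjusted p under 0.05 (edgeR adjusted p = 0.326), 1 of 10 beside 11.4% of all genes.

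In G3 mTerc-/-Puma+/+ versus Puma-/- 4 of 10 members were above 0 and 6 below (median -0.050, all genes -0.00049). Without G3 mTerc-/-Puma+/+ replicate 2 they were 2 and 8 (median -0.23), and without its replicate 4 they were 5 and 5 (median -0.011). None was called, beside 0.801% of all genes, and Relb and Nfkbie had an unadjusted p under 0.05, 2 of 10 beside 17.1% of all genes. Relb measured 10.2, 12.3, 9.39 and 12.4 CPM in Puma-/-, and only G3 mTerc-/-Puma+/+ replicate 1 reached that range. Its log2 fold change was -0.46 ± 0.150 (SE, edgeR, 95% confidence interval -0.79 to -0.14, p = 0.00834, adjusted p = 0.146, exact permutation p = 0.0571), and DESeq2 gave an adjusted p of 0.0533. Nfkbie measured 25.9, 28.6, 25.5 and 27.3 CPM in Puma-/-, above each G3 mTerc-/-Puma+/+ library. Its log2 fold change was -0.38 ± 0.143 (SE, edgeR, 95% confidence interval -0.69 to -0.078, p = 0.0177, adjusted p = 0.197), the exact permutation p of 0.0286 was the smallest possible, and the estimate was -0.24 without G3 mTerc-/-Puma+/+ replicate 2. It was the 1 member of 10 whose libraries were separated, beside 10.8% of all genes. Nfkb2, at 47.9, 51.4, 40.2 and 50.4 CPM in Puma-/-, had a log2 fold change of -0.27 ± 0.129 (SE, edgeR adjusted p = 0.299).

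Other features moved with this comparison. The 6 B lineage markers (Cd79a, Cd79b, Vpreb1, Igll1, Ebf1 and Pax5) had lower means in G3 mTerc-/-Puma+/+ for 6 of 6, with summed levels of 36.8 to 49.6 CPM against 59.1 to 65.8 CPM, and 5 of 5 mature B markers did, with 6.49 to 21.9 CPM against 27.1 to 32.5 CPM. Means were also lower for 5 of 5 megakaryocyte markers (153 to 219 CPM against 321 to 535 CPM), 5 of 5 mast and basophil markers (1252 to 2303 CPM against 2396 to 3860 CPM) and 5 of 5 plasmacytoid dendritic markers (138 to 201 CPM against 208 to 237 CPM). Erythroid markers had higher means for 6 of 6, with overlapping sums. None of these markers was at 0 counts throughout a genotype. In bulk RNA fewer B lineage cells and less of these RNAs per cell cannot be told apart, and the part of any of these cell types in the Relb and Nfkbie values was not tested. Ddx3y was at 42.8 to 48.3 CPM in G3 mTerc-/-Puma+/+ and at most at 0.0448 CPM in Puma-/-, so that the sex of the cells and the genotype cannot be told apart there. It was at 21.3 to 43.2 CPM in WT, so that Y-linked RNA and the genotype cannot be told apart for Puma-/- against WT either. Xist was at 418, 212 and 1.73 CPM in WT replicates 1 to 3, against 466 to 868 CPM in Puma-/-. WT replicates 1 and 2 thus held both transcripts. So did G3 mTerc-/-Puma+/+ replicates 1, 3 and 4, with Xist at 40.4, 88.9 and 50.8 CPM. Replicates 1 and 4 labelled G3 mTerc-/-Puma-/- held both too, as did its replicate 2 with Xist at 89.4 CPM and Ddx3y at 38.9 CPM. Within the label G3 mTerc-/-Puma-/- sex varied, as given above. Its part in the comparisons of that label with Puma-/- and with WT and in the interaction was not tested.

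**Figure D5:**
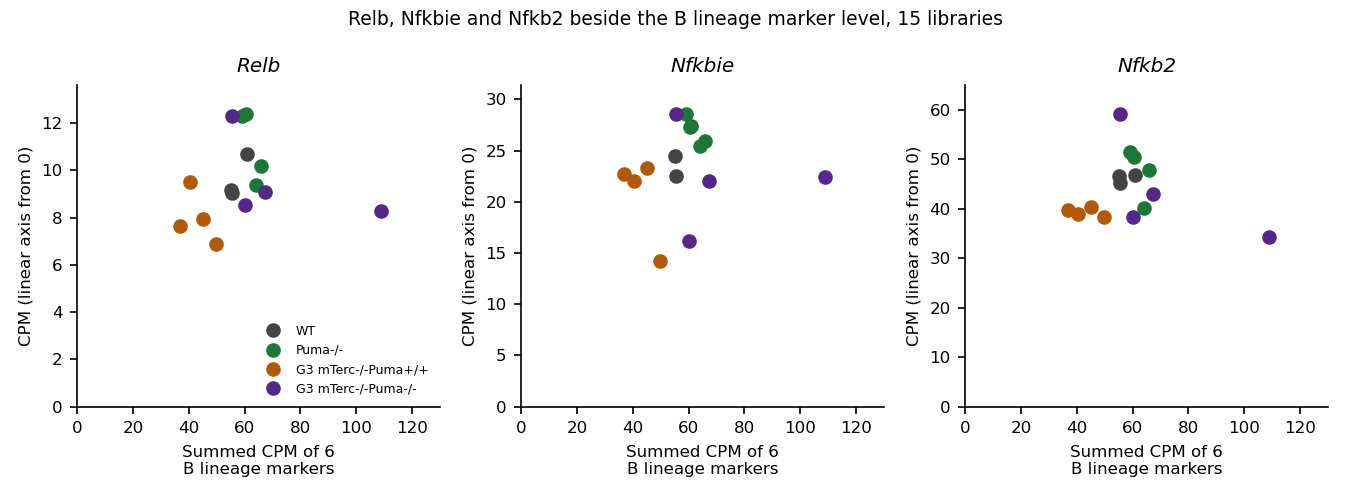
CPM of Relb, Nfkbie and Nfkb2 (linear axes from 0) against the summed CPM of 6 B lineage markers, 1 point per library coloured by genotype. G3 mTerc-/-Puma+/+ libraries lie at 36.8 to 49.6 CPM of markers and Puma-/- libraries at 59.1 to 65.8 CPM, with Nfkbie higher in each of the latter.

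With the libraries labelled G3 mTerc-/-Puma-/- set beside Puma-/-, 6 members were above 0 and 4 below (median 0.041, all genes 0.0092), and 1 was above 0 without replicate 1 of the former. Of the 10, 0 passed at an adjusted p (0.306% of all genes) or an unadjusted p under 0.05 (8.42%) in edgeR, and 0 were separated (9.57%). Tnfaip3 had the lowest p, with a log2 fold change of 1.27 ± 0.645 (SE, edgeR adjusted p = 0.632) that was -0.16 without replicate 1 labelled G3 mTerc-/-Puma-/-. Means of 12 of 15 immediate early genes, 7 of 7 neutrophil and 6 of 6 erythroid markers were higher than in Puma-/-, and those of 5 of 5 mature B, 5 of 5 megakaryocyte and 5 of 5 mast and basophil markers lower, and their part in these values was not tested.

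The rest of the pathway was described by role from listed genes, and 0 genes of any role passed in any of the 8 comparisons (edgeR). Directions and unadjusted p by role are given for the 14 libraries alone. Whether they rest on replicate 1 labelled G3 mTerc-/-Puma-/- or on the 4 libraries high in immediate early genes was not tested. Upstream, 17 receptors and ligands were measured. Between the mTerc-/- genotypes 13 were above 0 and 4 below in the libraries labelled G3 mTerc-/-Puma-/- (median 0.18), and 3 had an unadjusted p under 0.05, beside 6.22% of all genes. Il1b, the IL-1 beta ligand, had the lowest p at 3.04 ± 1.59 CPM (SD, n = 3) against 0.886 ± 0.444 CPM (SD, n = 4), a log2 fold change of 1.78 ± 0.504 (SE, edgeR adjusted p = 0.322). In G3 mTerc-/-Puma+/+ versus Puma-/-, 5 of 17 had an unadjusted p under 0.05 beside 17.1% of all genes, led by the BAFF receptor gene Tnfrsf13c, a B cell activator of the non-canonical arm, at 3.29 ± 1.09 against 6.10 ± 0.393 CPM (SD, n = 4 each, log2 fold change -0.89, edgeR adjusted p = 0.0621). B lineage and mature B markers were lower in the same comparison, as given above, and their part in the Tnfrsf13c value was not tested.

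Of 26 adaptors and kinases, 8 were above 0 and 18 below between the mTerc-/- genotypes (median -0.027), and Map3k14, encoding the NF-kB inducing kinase of the non-canonical arm, had the lowest p with a log2 fold change of 0.24 ± 0.154 (SE, edgeR adjusted p = 0.907). Chuk, encoding IkB kinase alpha, had the lowest p of its role in G3 mTerc-/-Puma+/+ versus Puma-/-, at 63.5 ± 3.46 against 52.7 ± 2.76 CPM (SD, n = 4 each, log2 fold change 0.27, edgeR adjusted p = 0.104). Of 11 other inhibitors 7 were above 0 and 4 below between the mTerc-/- genotypes (median 0.020). Zc3h12a, encoding the RNase Regnase-1, had the lowest p there (0.46 ± 0.231, SE, edgeR adjusted p = 0.824) and Tank in G3 mTerc-/-Puma+/+ versus Puma-/- (0.23 ± 0.0702, SE, edgeR adjusted p = 0.126).

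Downstream, 19 of 20 listed target genes passed the count filter, Nos2 being the exception. Between the mTerc-/- genotypes 16 were above 0 and 3 below (median 0.24, all genes -0.015), and 4 had an unadjusted p under 0.05 (6.22% of all genes did), the chemokine genes Ccl3 and Ccl4 with Cd83 and Vcam1. Ccl3 had the lowest p, at 139 ± 39.7 CPM (SD, n = 3) under the label G3 mTerc-/-Puma-/- and 86.2 ± 13.2 CPM (SD, n = 4) in G3 mTerc-/-Puma+/+, a log2 fold change of 0.69 ± 0.221 (SE, edgeR adjusted p = 0.457). Between G3 mTerc-/-Puma+/+ and WT 13 targets were below 0 and 6 above (median -0.14), again led by Ccl3 (-0.84 ± 0.221, SE, edgeR adjusted p = 0.749, WT 154 ± 32.1 CPM, SD, n = 3). These comparisons share the G3 mTerc-/-Puma+/+ libraries. Each also holds libraries high in immediate early genes, whose part in the target values was not tested. In G3 mTerc-/-Puma+/+ versus Puma-/-, Cd83, a surface protein of activated B and dendritic cells, had the lowest p of the targets at 2.27 ± 0.987 against 5.55 ± 1.02 CPM (SD, n = 4 each, log2 fold change -1.29, edgeR adjusted p = 0.0883). The part of the lower B cell and plasmacytoid dendritic markers of that comparison in the Cd83 value was not tested, and sex and genotype cannot be told apart there.

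Listed genes with the lowest p of their role in other comparisons were these. Between G3 mTerc-/-Puma+/+ and WT these were, besides Ccl3, the LPS receptor gene Tlr4 (0.34 ± 0.139, SE), the signalling adaptor gene Bcl10 (-0.25 ± 0.117) and Zc3h12a (-0.58 ± 0.231), each with an edgeR adjusted p of 0.998. Between Puma-/- and WT they were the IL-1 receptor gene Il1r1 (0.60 ± 0.168, SE, 11.5 ± 2.49 against 7.57 ± 1.23 CPM, SD), Bcl10 (-0.31 ± 0.117), Nfkbid, a nuclear IkB gene (-0.83 ± 0.322), and Tnip3 (1.03 ± 0.275), with edgeR adjusted p from 0.341 to 0.435. Il1r1 also had the lowest p of the receptors under the label G3 mTerc-/-Puma-/- against WT (0.80 ± 0.178, SE, 13.2 ± 1.93 CPM, SD, edgeR adjusted p = 0.274), in a comparison that shares the WT libraries. Under the same label against Puma-/-, they were the IL-1 alpha gene Il1a (-1.04 ± 0.344, SE), Chuk (0.16 ± 0.0823), Tank (0.16 ± 0.0756) and the activation marker gene Cd69 (1.23 ± 0.515), with edgeR adjusted p from 0.369 to 0.634. In the interaction 6 of 19 targets had an unadjusted p under 0.05 beside 4.93% of all genes, 5 of them above 0, with Ccl4 lowest (1.55 ± 0.439, SE, edgeR adjusted p = 0.650).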

How the data were processed

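Per the labels and the study's methods, poly(A)-selected stranded libraries of 15 samples were trimmed with Trimmomatic 0.38, aligned with STAR 2.5.2b to mm10 (GRCm38) and counted per gene. The authors deposited raw counts of 45706 genes without normalization. The annotation release and strand setting are not given in the sources used here. Genes without a symbol in GENCODE vM21 (563) held 0.0643% of all reads counted.

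The tests ran in edgeR 4.0.16 (R 4.3.3): TMM factors (0.926 to 1.07), filterByExpr (18983 genes), 1 fit of the 4 genotypes, the quasi-likelihood test, Benjamini-Hochberg adjustment over all genes and a threshold of 0.05. Replicate 2 labelled G3 mTerc-/-Puma-/- was left out, as in the study's heatmaps, although its methods exclude no data. Single values were tested by exact permutation (scipy 1.17.1), correlations of log2 CPM (prior count 2) with 100000 permutations, within 11 libraries instead of the intended 15 because these fell into separate sets. CPM for levels used TMM factors over 15 libraries, and TPM used exonic lengths of GENCODE vM21. Promoters came from RefSeq (GRCm38.p6). Alternatives were DESeq2 1.42.0, limma-voom (limma 3.58.1), other scalings, filters and libraries, and a replicate block. The calculations were tested on simulated data. All 10 members were named with values in each library, in full for the 2 mTerc-/- genotypes and elsewhere at an unadjusted p under 0.05, plus values singled out for separated libraries or the lowest p, which were chosen after they were seen. Other pathway genes were named by the lowest p per role in chosen comparisons, and the likeness to Nfkbia used the 5 highest r. Members and lists were chosen with earlier results of these data known. A gene of the adaptor list and one of the B lineage list are not reported here and were left out of their counts and sums.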

Additional observations from a re-analysis of the deposited data

Results flagged for a closer look

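In groups of 4 libraries, the highest or lowest value was compared with the spread of the others by Dixon's criterion. Of 30 combinations of a gene and a genotype 7 stood out, where the criterion flags about 1 in 20 of independent values. The genes share libraries, so their values are not independent. The share of all genes standing out is not given here, and no conclusion is drawn from the count. Under the label G3 mTerc-/-Puma-/-, replicate 1 was far above the other 3 for Tnfaip3 (256 CPM against 32.8 to 51.0), Nfkbiz (98.7 CPM against 20.9 to 31.9) and Nfkbia (190 CPM against 83.9 to 89.2). In G3 mTerc-/-Puma+/+, replicate 2 was far above for Tnfaip3 (105 CPM against 35 to 42.5) and Nfkbiz (52.3 CPM against 15.7 to 20.8) and far below for Nfkbie (14.2 CPM against 22.0 to 23.3). In Puma-/-, replicate 3 was lowest for Nfkb1 (302 CPM against 313 to 314), a gap of few CPM in a very narrow group. Replicate 1 labelled G3 mTerc-/-Puma-/- and replicate 2 of G3 mTerc-/-Puma+/+ are 2 of the 4 libraries highest in immediate early genes. The 3 WT libraries were too few for this comparison.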

How the results depend on the processing

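In each of the 8 comparisons 0 of the 10 genes were called under every setting tried, DESeq2, limma-voom and the added removal of libraries included, with adjusted p no lower than 0.0533 (Relb, DESeq2). Refits of the 20 fold changes given in full, 10 of them between the mTerc-/- genotypes, changed sign 24 times and kept it 453 times, and the cause was not tested. The values below are for the mTerc-/- genotypes except where said. With all 15 libraries Nfkb1 was -0.20, Rel -0.16, Rela -0.021 and Nfkbib -0.046. Without the 4 libraries highest in immediate early genes, chosen after seeing the data, Nfkb1 was -0.18, Nfkb2 -0.045, Rel -0.21, Rela -0.085, Nfkbia -0.011, Nfkbie -0.034 and Relb, which kept its sign, 0.046, and Rel between Puma-/- and WT was 0.10. Fold changes outside those 20 turned there too, such as Nfkbiz between Puma-/- and WT (0.47) and Rel (0.22) and Nfkb1 (0.033) between G3 mTerc-/-Puma+/+ and WT. Leaving out single replicates, log2 fold changes ranged from -0.094 to 0.065 for Nfkb1, -0.028 to 0.38 for Nfkb2, -0.20 to 0.24 for Rel, -0.042 to 0.13 for Rela, -0.18 to 0.51 for Nfkbia, -0.042 to 0.10 for Nfkbib, -0.038 to 1.43 for Nfkbiz, -0.40 to 1.55 for Tnfaip3, 0.12 to 0.42 for Relb and 0.10 to 0.31 for Nfkbie. Same-numbered libraries of different genotypes correlated at -0.253 to 0.182 in their deviations from genotype means, and 5 of 21 pairs exceeded 0.1. Libraries of different numbers correlated at -0.215 to 0.254. The labels name no pairing, so whether replicate numbers share a donor or a batch cannot be told from these values. A fit with the replicate number as a block called 0 members too, with Nfkb1 at -0.033. Pairs of members passing on both coefficients were 0 within the 11 libraries, but 8 over 15 pooled libraries, 7 over 14 and 6 over residuals from genotype means, and members passing with the immediate early level were 0, 4, 3 and 3 in that order.

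Calls over all genes depended more on the tool. Between the mTerc-/- genotypes 14 genes were called, 2 with only those genotypes in the fit and 172 by DESeq2, and between G3 mTerc-/-Puma+/+ and Puma-/- 152, 18 without Puma-/- replicate 4, 43 with the replicate block and 959 by DESeq2. At these depths counting error was small, and the spread between libraries limits the precision, most for Tnfaip3 and Nfkbiz.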
